A study of Mus musculus with 22 samples.

Results

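The genes described here encode the enzymes of glycolysis and of the tricarboxylic acid (TCA) cycle, together with the enzymes that handle pyruvate and lactate between the pathways. The 33 members were listed by enzyme function, out of 21995 genes in the table. They comprise 15 glycolytic enzymes from hexokinase to pyruvate kinase, 2 lactate dehydrogenase subunits, 4 subunits of the pyruvate dehydrogenase complex, 11 enzymes or subunits of the TCA cycle and pyruvate carboxylase. The cytosolic malate dehydrogenase Mdh1 was counted with the TCA cycle. Succinate dehydrogenase was not among the members. All 33 were found in the table and all 33 had enough reads to be tested in both comparisons.

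RNA-seq was performed on whole spinal cords of C57BL/6 mice, 1 library per mouse. The aging comparison set 8 old wild-type male mice of 18 to 24 months against 8 young wild-type male mice of 3 to 4 months, with libraries made by the KAPA Hyperprep kit of Roche. The amyotrophic lateral sclerosis (ALS) comparison set 3 SOD1G93A mice against 3 wild-type control mice of 5 to 6 months, with libraries made by the TruSeq kit of Illumina. SOD1G93A mice carry many copies of a mutant human SOD1 transgene and develop motor neuron loss and paralysis, so they model one inherited form of the disease. Each ALS group held 2 female mice and 1 male mouse, but the sex of each library was not given. Libraries are numbered here only to name them, in the order of the table columns. Because the cord was sequenced whole, fewer cells of a type and less RNA per cell cannot be told apart.

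Glycolysis splits glucose into pyruvate in the cytosol and yields a small amount of ATP. Pyruvate is then either reduced to lactate by lactate dehydrogenase or taken into mitochondria, where the pyruvate dehydrogenase complex converts it to acetyl-CoA for the TCA cycle and pyruvate carboxylase converts it to oxaloacetate. In the nervous system several steps are shared among isozymes that differ between cell types. Enolase 2 is the classical neuron-specific enolase, aldolase C is prominent in astrocytes, and astrocytes are generally viewed as more glycolytic than neurons, which rely heavily on mitochondrial oxidation.

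The 22 libraries held 5078092 to 9358055 counts in young mice, 5664869 to 9145600 in old mice, 10693060 to 13219797 in control mice and 9675610 to 11872431 in SOD1G93A mice. Reads assigned to the mouse Sod1 gene, to which transcripts of the human transgene can also align, were at 156 to 168 CPM (counts scaled to library size, with TMM factors between libraries) in control libraries and at 296 to 335 CPM in SOD1G93A libraries. In the ALS comparison, SOD1G93A library 2 lay nearest to the controls for 23 of the 33 members. It also had the lowest summed level of microglial and macrophage markers of its group, at 2314 CPM against 4668 and 3584 CPM, and the highest summed level of neuronal markers, at 9994 CPM against 6463 and 7212 CPM. In the aging comparison, old library 6 had the lowest sum of microglial and macrophage markers among the old libraries, at 902 CPM, and the highest sum of neuronal markers, at 12403 CPM. The counts of called members are also given without old library 6 in aging and without SOD1G93A library 2 in ALS. Fold changes and sums are given with these libraries unless stated.

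Levels between genes were compared per unit of transcript length, on the authors' log2(FPKM + 1) scale. Aldoc, Aldoa and Pkm, which encode aldolases C and A and pyruvate kinase, were the 3 most abundant members in every group. In control mice Aldoc stood at 10.01 ± 0.0065, Aldoa at 9.37 ± 0.034 and Pkm at 9.36 ± 0.0069 (mean ± SD, n = 3), so that Aldoa and Pkm did not differ beyond their spread. The next members were Mdh1 (cytosolic malate dehydrogenase) at 8.75 ± 0.054 and Ldhb (the lactate dehydrogenase subunit typical of oxidative tissue) at 8.72 ± 0.019. At the low end, Dlat (the acetyltransferase core of the pyruvate dehydrogenase complex) stood at 5.42 ± 0.087, Pfkl (liver-type phosphofructokinase) at 4.86 ± 0.017 and Pcx (pyruvate carboxylase) at 4.76 ± 0.032. Hk2, which encodes hexokinase 2, an inducible isozyme best known from muscle and fat, was the least abundant member of every group, at 0.99 ± 0.18 in control mice against 6.00 ± 0.031 for Hk1, the hexokinase that predominates in brain. The order of the members changed most for Ldha, the lactate dehydrogenase subunit typical of glycolytic tissue. It ranked 28 of 33 in young and in control mice, 26 in old mice and 18 in SOD1G93A mice.

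The first question was how these enzymes differ between old and young spinal cord. With edgeR's quasi-likelihood test over 13647 genes and an adjusted p under 0.05, 9 of the 33 members (27.3%) were higher in old mice and 1 (3.03%) was lower, against 13.5% and 12.9% of all genes tested. The 9 were Hk1, Hk2, Gpi1, Aldoa, Tpi1, Gapdh, Pgam1 and Pkm of glycolysis and Mdh2 of the TCA cycle, and the 1 that was lower was Dld. Except for Hk2 the changes were small, with fold changes of at most 1.17. The median log2 fold change was 0.058 over the members and -0.0027 over all genes.

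Hk2 had the largest change of the 33. Its level was lowest at 3.83, median 5.22 and highest at 6.28 CPM in young mice, and lowest at 7.71, median 11.4 and highest at 14.8 CPM in old mice. Every old library was thus above every young one. The change was 2.34-fold (log2 fold change 1.23 ± 0.14 SE, edgeR adjusted p = 9.0e-07), and Hk2 was the only member that also passed the study's added threshold of a log2 fold change beyond 1, which 2.18% of all genes passed upward. The lowest old value was that of library 6.

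Gpi1 encodes glucose-6-phosphate isomerase, which follows hexokinase. It ranged from 439 over a median of 484 to 501 CPM in young mice and from 533 over a median of 548 to 582 CPM in old mice, again without overlap. The increase was 1.15-fold (log2 0.20 ± 0.036, edgeR adjusted p = 0.00018).

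Aldoa, which encodes the aldolase isozyme of muscle and most other tissues, ranged from 1074 over 1197 to 1267 CPM in young mice and from 1308 over 1361 to 1420 CPM in old mice. The groups did not overlap, and the increase was 1.14-fold (log2 0.19 ± 0.037, edgeR adjusted p = 0.00041). Hk2, Gpi1 and Aldoa were the 3 members whose groups did not overlap (9.09%, all 3 upward, against 5.33% of all genes with 3.66% upward and 1.66% downward).

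The other 6 higher members overlapped between the groups. Triose-phosphate isomerase (Tpi1) had a log2 fold change of 0.17 ± 0.043, and glyceraldehyde-3-phosphate dehydrogenase (Gapdh) one of 0.22 ± 0.077. Phosphoglycerate mutase (Pgam1), pyruvate kinase (Pkm) and hexokinase 1 (Hk1) had log2 fold changes of 0.13 ± 0.041, 0.12 ± 0.033 and 0.12 ± 0.036. Mitochondrial malate dehydrogenase (Mdh2) had one of 0.14 ± 0.044. The edgeR adjusted p of these 6 genes lay between 0.0051 for Tpi1 and 0.036 for Gapdh. With single libraries left out, the call held in 8 of 16 fits for Gapdh, 9 for Pgam1 and 14 for Mdh2. All 8 old libraries were above the young median for Hk1, Tpi1, Pgam1, Pkm and Mdh2, and 7 of 8 were for Gapdh.

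Dld, which encodes the dihydrolipoamide dehydrogenase shared by the pyruvate and 2-oxoglutarate dehydrogenase complexes, was the exception. It ranged from 118 over 130 to 142 CPM in young mice and from 104 over 118 to 136 CPM in old mice. The log2 fold change was -0.15 ± 0.053 (edgeR adjusted p = 0.043), and 7 of 8 old libraries were below the young median. The call was lost without any one of 12 of the 16 libraries.

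The remaining 23 members did not pass the test in aging. Among them were 14 of the 16 genes of the pyruvate dehydrogenase complex, the TCA cycle and Pcx. Citrate synthase (Cs), which condenses acetyl-CoA with oxaloacetate, ranged from 325 over 335 to 347 CPM in young mice and from 328 over 345 to 356 CPM in old mice, with a log2 fold change of 0.039 ± 0.032. The summed level of the 16 genes ranged from 3325 to 3531 CPM in young mice and from 3332 to 3559 CPM in old mice. The sum over the 15 glycolysis genes ranged from 8681 to 9534 CPM in young mice and from 9475 to 10193 CPM in old mice.

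This result changed under a correction for base composition and transcript length. When each library was corrected for GC content and length, a setting chosen after the data were seen, 2 members stayed higher in old mice, Hk2 and Gpi1, and none was lower, against 12% and 8.45% of all genes. The log2 fold changes of Aldoa, Tpi1, Pgam1 and Pkm fell to 0.047, 0.033, 0.0033 and 0.013 under the correction, and that of Hk2 was 1.25. Of the 15 glycolysis genes, 14 had a positive log2 fold change without the correction and 10 with it. Without old library 6, 12 members were higher and 2 lower, against 15.9% and 16% of all genes, with Pfkl, Eno1, Eno2 and Ldha called higher, Gapdh no longer called and Sucla2 called lower.

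**Figure D1:**
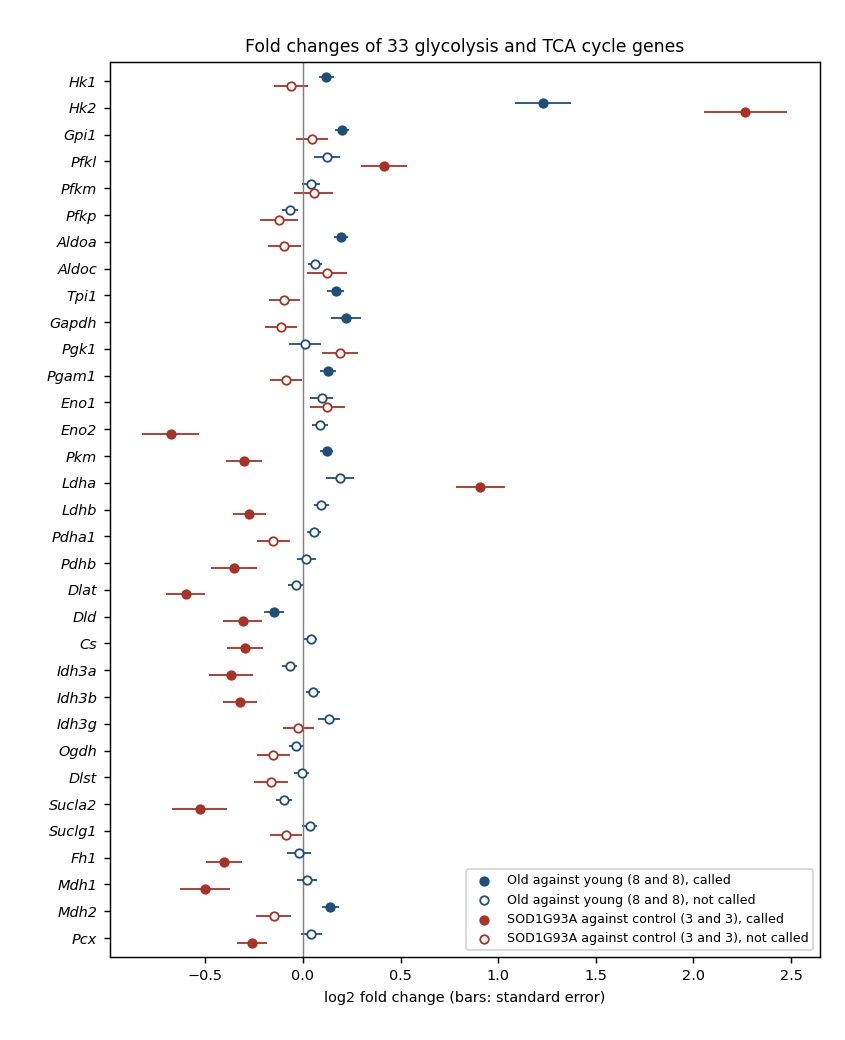
Log2 fold change (x axis) of each of the 33 genes (y axis, in pathway order) for old against young mice in blue (8 and 8 libraries) and SOD1G93A against control mice in red (3 and 3 libraries), with bars of 1 standard error and filled points for an edgeR adjusted p under 0.05. Most blue points of glycolysis lie just right of 0, every red point from Pdha1 down to Pcx lies left of 0, and Hk2 lies far to the right in both.

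The second question was how the same enzymes differ between SOD1G93A and control spinal cord. Here 3 of the 33 members (9.09%) were higher and 13 (39.4%) were lower, against 18.4% and 15.5% of 14386 genes tested, 33.9% in either direction. With total counts as the only scaling, 3 were higher and 6 lower, against 20.4% and 12% of all genes, with Pkm and Ldhb no longer called. Hk2, Ldha and Pfkl were higher. Eno2, Pkm and Ldhb were lower, as were 10 of the 16 pyruvate dehydrogenase complex, TCA cycle and Pcx genes. The median log2 fold change was -0.15 over the members and 0.0031 over all genes. The groups did not overlap for 23 members (69.7%), 4 upward and 19 downward, against 50.4% of all genes with 25.7% upward and 24.7% downward.

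The number of lower members depended on single libraries, and so did the number over all genes. It was 3, 2 and 3 when control library 1, 2 or 3 was left out, and 4 and 2 when SOD1G93A library 1 or 3 was left out. Over all genes the share called lower was then between 4.92% and 9.44%. Without SOD1G93A library 2 it was 14 members, against 21.7% of all genes. Hk2, Ldha, Eno2 and Dlat kept their call in all 6 of these fits. Fh1 kept it in 4, Mdh1 in 2 and each of the other 10 in 1 of 6.

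Hk2 stood at 4.08, 5.22 and 4.00 CPM in the control libraries and at 26.5, 16.3 and 21.1 CPM in the SOD1G93A libraries. All 3 SOD1G93A values were more than 3 times the highest control value. The change was 4.81-fold (log2 2.27 ± 0.21, edgeR adjusted p = 0.00024), and Hk2 was again the only member past the log2 threshold of 1, which 8.5% of all genes passed upward and 1.2% downward.

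Ldha stood at 72.0, 74.5 and 75.3 CPM in control libraries and at 166, 117 and 134 CPM in SOD1G93A libraries. The groups were widely separated, and the increase was 1.88-fold (log2 0.91 ± 0.13, edgeR adjusted p = 0.0013).

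Pfkl, one of the 3 subunits of phosphofructokinase, the main regulated step of glycolysis, stood at 89.1, 89.7 and 90.3 CPM in control libraries and at 142, 103 and 113 CPM in SOD1G93A libraries. The increase was 1.33-fold (log2 0.41 ± 0.12, edgeR adjusted p = 0.025). The call held in 1 of the 6 fits that left out a library, the one without SOD1G93A library 2.

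The promoters of the 3 genes that were higher in SOD1G93A mice are shown because these genes moved in the same direction. Each window runs from 250 bases before to 50 bases after a RefSeq transcript start on GRCm38.p6, and was chosen as the one nearest to the principal transcript of GENCODE M21. Such a window was matched for 32 of the 33 members. Capitals mark ACGTG and GCGTG on either strand (CACGT and CACGC when read from the other strand), the core letters recognized by hypoxia-inducible factors, so that the capitals CACGTG hold ACGTG on both strands. Hk2 lies on the minus strand of chr6 (window chr6:82774405-82774704), Ldha on the plus strand of chr7 (chr7:46845554-46845853) and Pfkl on the minus strand of chr10 (chr10:78009758-78010057), and the sequences read 5′ to 3′ along the gene.
Hk2: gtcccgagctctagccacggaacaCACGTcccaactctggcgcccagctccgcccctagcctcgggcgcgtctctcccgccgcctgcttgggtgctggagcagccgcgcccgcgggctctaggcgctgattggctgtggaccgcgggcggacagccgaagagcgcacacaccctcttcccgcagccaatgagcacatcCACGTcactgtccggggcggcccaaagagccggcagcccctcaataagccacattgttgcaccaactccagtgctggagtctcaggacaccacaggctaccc
Ldha: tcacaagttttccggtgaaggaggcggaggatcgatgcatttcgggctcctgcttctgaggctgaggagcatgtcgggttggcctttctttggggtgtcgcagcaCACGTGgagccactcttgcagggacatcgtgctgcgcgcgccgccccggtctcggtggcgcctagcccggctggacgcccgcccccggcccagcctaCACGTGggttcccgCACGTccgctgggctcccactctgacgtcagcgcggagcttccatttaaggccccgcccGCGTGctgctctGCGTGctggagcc
Pfkl: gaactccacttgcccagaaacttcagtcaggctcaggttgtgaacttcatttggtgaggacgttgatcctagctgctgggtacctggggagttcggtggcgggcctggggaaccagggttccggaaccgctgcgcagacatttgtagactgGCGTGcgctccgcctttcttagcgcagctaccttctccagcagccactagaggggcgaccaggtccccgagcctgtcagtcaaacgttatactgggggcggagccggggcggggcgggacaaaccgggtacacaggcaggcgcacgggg
The Hk2 window held 2 matches, beginning 226 and 52 bases before the start, the Ldha window held 7 and the Pfkl window held 1, beginning 99 bases before the start. At least 1 match was present in the windows of all 3 higher members, of 5 of the 12 lower members with a window, of 12 of the 17 members not called and of 50.5% of 16453 promoters. The motif of nuclear respiratory factor 1 was found in 4 of 32 member windows (12.5%) and 6.85% of all promoters, and AAGGTCA, the half-site of estrogen-related receptors, in 2 of 32 (6.25%) and 3.9%, both strands searched. Neither sequence was found in the windows of Hk2, Ldha or Pfkl. These matches describe the letters of the window only.

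Among the glycolysis genes that were lower, Eno2, the neuron-specific enolase, had the largest fall. It stood at 903, 891 and 926 CPM in control libraries and at 455, 698 and 548 CPM in SOD1G93A libraries. The fall was 1.60-fold (log2 -0.68 ± 0.15, edgeR adjusted p = 0.0088). Eno1, the ubiquitous enolase, was not called, at 538.9, 521.0 and 508.4 CPM in control and 568.1, 534.6 and 608.5 CPM in SOD1G93A libraries.

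Pkm stood at 1491, 1476 and 1495 CPM in control libraries and at 1145, 1285 and 1194 CPM in SOD1G93A libraries, a fall of 1.23-fold (log2 -0.30 ± 0.091, edgeR adjusted p = 0.032). The M1 and M2 splice forms of pyruvate kinase cannot be separated in gene-level counts. Ldhb stood at 545, 543 and 515 CPM in control libraries and at 421, 458 and 446 CPM in SOD1G93A libraries, a fall of 1.21-fold (log2 -0.27 ± 0.086, edgeR adjusted p = 0.036). Of the lactate dehydrogenase subunits, Ldha was thus higher and Ldhb lower.

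The other 11 glycolysis genes did not pass the test. They included Hk1, Gpi1, Aldoa, Tpi1, Gapdh and Pgam1, which were higher in old mice, and their log2 fold changes in SOD1G93A mice lay between -0.12 for Pfkp and 0.19 for Pgk1. All 3 SOD1G93A libraries lay above all 3 controls for Pgk1 (phosphoglycerate kinase) and below them for Aldoa, Tpi1 and Gapdh. Over all genes tested, the groups did not overlap for 25.7% upward and 24.7% downward.

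**Figure D2:**
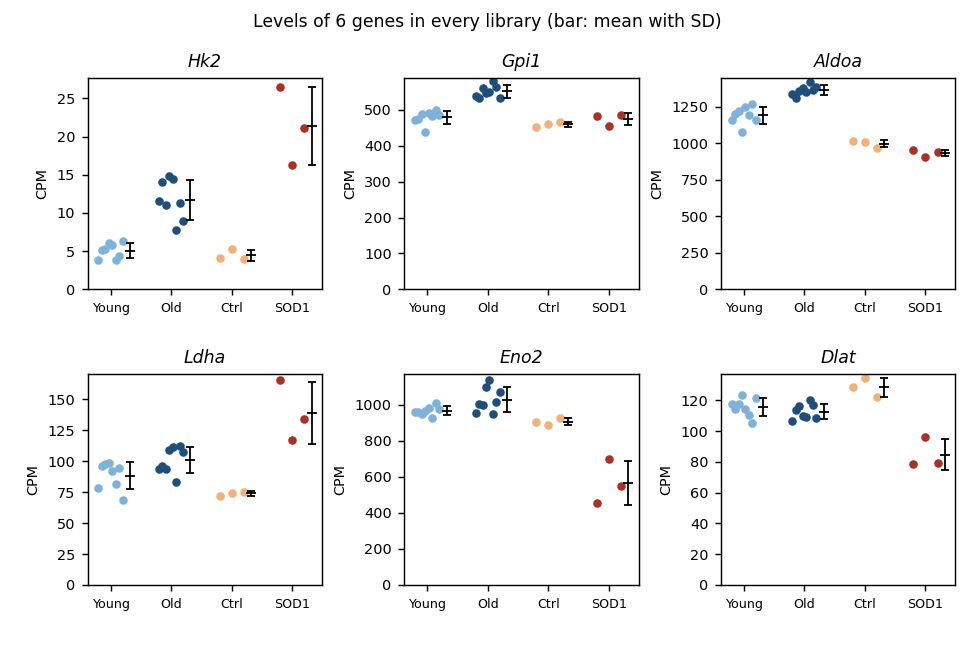
Level in CPM (y axis, from 0) of 6 genes in every library, by group (x axis, Ctrl for control and SOD1 for SOD1G93A), with the mean and SD of each group beside its points. Hk2 is higher in old and in SOD1G93A mice, Gpi1 and Aldoa are higher in old mice, and Ldha is higher and Eno2 and Dlat lower in SOD1G93A mice.

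Of the 16 pyruvate dehydrogenase complex, TCA cycle and Pcx genes, 10 (62.5%, against 15.5% of all genes) were lower and none was higher. Cytosolic Mdh1 was among the 10. All 16 had a negative log2 fold change, with a median of -0.30. The 10 became 3 with limma on log2(FPKM + 1), where 9.02% of all genes were lower. Without control library 1, 2 or 3 they became 2, 1 and 2, against 9.19%, 6.56% and 8.6% of all genes. Without SOD1G93A library 1, 2 or 3 they became 3, 11 and 1, against 9.44%, 21.7% and 4.92% of all genes. With total counts as the only scaling, 5 of the 16 were lower, against 12% of all genes, and 15 had a negative log2 fold change. Their summed level was 3239 to 3400 CPM in control mice and 2548 to 2965 CPM in SOD1G93A mice. The sum over the glycolysis genes was also lower, at 8176 to 8259 CPM in control mice and 7590 to 7881 CPM in SOD1G93A mice. The groups did not overlap for 13 of the 16 (81.2%, against 24.7% of all genes downward). SOD1G93A library 2 was the highest of its group for 12 of the 16.

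The pyruvate dehydrogenase complex joins glycolysis to the TCA cycle. Dlat stood at 128, 134 and 122 CPM in control libraries and at 78.7, 96.2 and 79.2 CPM in SOD1G93A libraries. Its fall of 1.52-fold (log2 -0.60 ± 0.10, edgeR adjusted p = 0.0034) was the largest among the mitochondrial members. Pdhb, the beta subunit of the decarboxylase, fell by 0.35 ± 0.12 on the log2 scale (edgeR adjusted p = 0.047), and Dld fell by 0.31 ± 0.099 (edgeR adjusted p = 0.039). Pdha1, the alpha subunit that pyruvate dehydrogenase kinases phosphorylate, was not called, at 262, 257 and 254 CPM in control and 233, 244 and 218 CPM in SOD1G93A libraries. Dld was the single member that was lower in both comparisons.

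At the entry of the TCA cycle, citrate synthase (Cs) stood at 290, 318 and 286 CPM in control libraries and at 242, 260 and 226 CPM in SOD1G93A libraries (log2 -0.29 ± 0.093, edgeR adjusted p = 0.038). NAD-dependent isocitrate dehydrogenase has 3 kinds of subunit. The catalytic Idh3a fell by 0.37 ± 0.11 on the log2 scale and the regulatory Idh3b fell by 0.32 ± 0.085 (edgeR adjusted p = 0.035 and 0.019). Idh3g, the remaining subunit, was at 116, 117 and 105 CPM in control and 113, 110 and 109 CPM in SOD1G93A libraries and was not called. The 2-oxoglutarate dehydrogenase components Ogdh and Dlst had log2 fold changes of -0.15 ± 0.084 and -0.16 ± 0.086 and were not called. Their groups did not overlap, as was so downward for 24.7% of all genes.

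Succinyl-CoA ligase contains Suclg1 with either Sucla2, in the ADP-forming enzyme, or Suclg2, in the GDP-forming one. Sucla2 stood at 199, 204 and 189 CPM in control libraries and at 122, 170 and 118 CPM in SOD1G93A libraries, a fall of 1.44-fold (log2 -0.53 ± 0.14, edgeR adjusted p = 0.019). Suclg1 was not called (log2 -0.089 ± 0.082). Suclg2, which is not a member, was higher, at 28.9 ± 0.50 CPM in control and 45.1 ± 7.63 CPM in SOD1G93A mice (mean ± SD, n = 3 and 3; log2 0.64 ± 0.13 SE, edgeR adjusted p = 0.0062). The beta subunits of the ligase therefore changed in opposite directions.

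Fumarase (Fh1) stood at 77.6, 86.3 and 76.1 CPM in control libraries and at 60.9, 65.2 and 55.4 CPM in SOD1G93A libraries (log2 -0.40 ± 0.094, edgeR adjusted p = 0.012). Mdh1, the cytosolic malate dehydrogenase of the malate-aspartate shuttle, stood at 649, 640 and 612 CPM in control libraries and at 393, 540 and 411 CPM in SOD1G93A libraries. Its fall was 1.41-fold (log2 -0.50 ± 0.13, edgeR adjusted p = 0.017). Mitochondrial Mdh2 was not called (log2 -0.15 ± 0.090). Pcx, which in brain is chiefly an astrocyte enzyme, stood at 118, 118 and 113 CPM in control libraries and at 99.1, 99.7 and 92.3 CPM in SOD1G93A libraries (log2 -0.26 ± 0.079, edgeR adjusted p = 0.032).

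**Figure D3:**
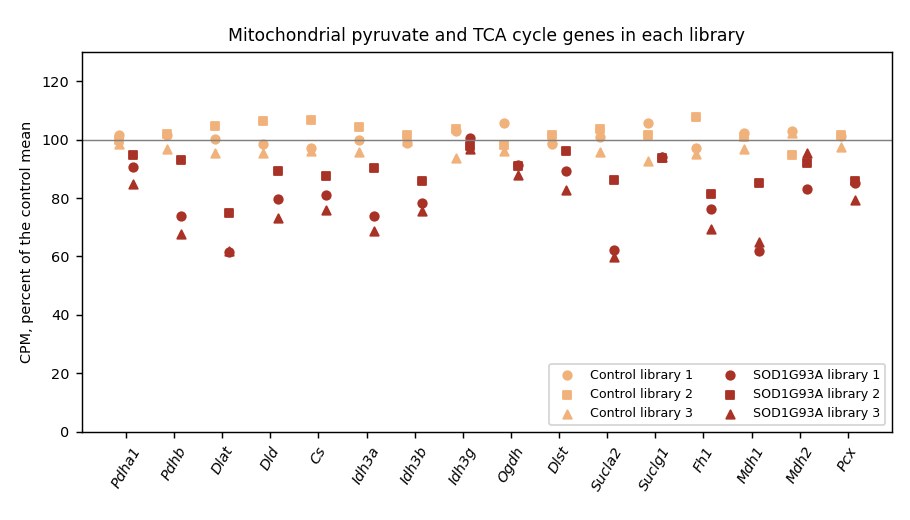
Level of each of the 16 pyruvate dehydrogenase complex, TCA cycle and Pcx genes (x axis) in each ALS library as a percent of the control mean in CPM (y axis, from 0), with a marker shape for each library number. Mdh1 among them encodes a cytosolic enzyme. The SOD1G93A points lie at or under the control mean for nearly every gene, with library 2 mostly nearest to it.

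Isozyme ratios within a library do not depend on scaling between libraries, so the log2 ratio of the CPM of 5 isozyme pairs was compared in both experiments. An exact two-sided permutation test was used with Benjamini-Hochberg adjustment over the 10 comparisons. With 3 against 3 libraries this exact test cannot go below p = 0.1, so no ALS ratio could pass.

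In old mice the Hk2 to Hk1 log2 ratio rose from -5.91 ± 0.30 to -4.83 ± 0.36 (mean ± SD, n = 8 and 8), by 1.08 or 2.11-fold, with no overlap between the groups (exact permutation p = 0.00016, the smallest possible here, adjusted p = 0.0016). The Aldoa to Aldoc ratio rose by 0.13 (exact permutation p = 0.00093, adjusted p = 0.0047). On the log2(FPKM + 1) scale its rise was 0.095 and did not pass (exact permutation, adjusted p = 0.125). The ratios of Pfkp to Pfkm, Ldha to Ldhb and Eno1 to Eno2 did not pass, with differences of -0.11, 0.097 and 0.0051.

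In SOD1G93A mice the groups did not overlap for any of the 5 ratios, each with the smallest exact permutation p of 0.1 and an adjusted p of 0.125. The Ldha to Ldhb log2 ratio was -2.92, -2.87 and -2.77 in control libraries and -1.34, -1.97 and -1.74 in SOD1G93A libraries, a difference of 1.17 or 2.25-fold. The Hk2 to Hk1 ratio differed by 2.31 or 4.97-fold. The Eno1 to Eno2 ratio was -0.74, -0.77 and -0.87 in control libraries and 0.32, -0.38 and 0.15 in SOD1G93A libraries, so that Eno1 had more counts than Eno2 in 2 of the 3. The ratios of Aldoa to Aldoc and Pfkp to Pfkm were lower by 0.21 and 0.18.

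**Figure D4:**
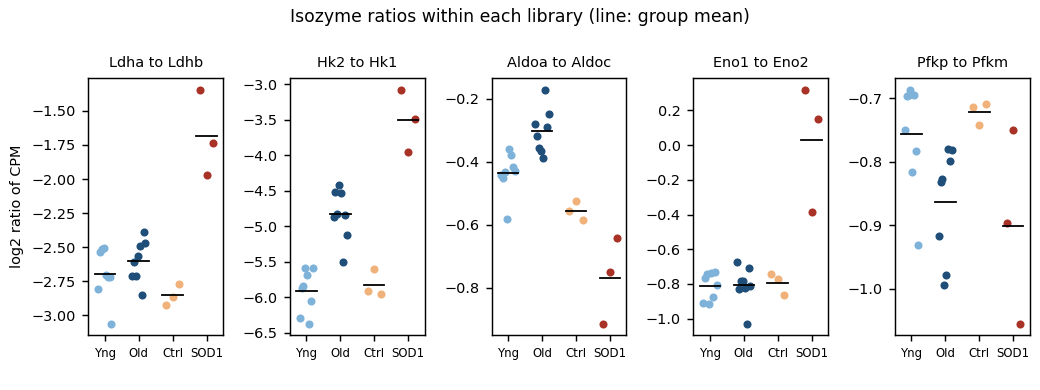
Log2 ratio of the CPM of 5 isozyme pairs (y axis, its own scale in each panel) in every library, by group (x axis, Yng for young, Ctrl for control and SOD1 for SOD1G93A), with a line at each group mean. The SOD1G93A points lie above the control points for Ldha to Ldhb, Hk2 to Hk1 and Eno1 to Eno2 and below them for Aldoa to Aldoc and Pfkp to Pfkm.

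Whether the members responded differently in the 2 experiments was tested as an interaction, the SOD1G93A log2 fold change minus the old log2 fold change, in one edgeR fit of all 22 libraries. The experiments also differed in kit, sex and age, which cannot be told apart from the difference itself. The difference was called positive for 2 members (6.06%) and called negative for 18 (54.5%), against 11.6% and 14.2% of 14502 genes. The positive ones were Hk2, at 1.01 ± 0.27 (edgeR adjusted p = 0.0063), and Ldha, at 0.69 ± 0.15 (edgeR adjusted p = 0.0012). The negative ones were led by Eno2 at -0.79 ± 0.11, Dlat at -0.59 ± 0.088 and Mdh1 at -0.55 ± 0.12 (edgeR adjusted p = 2.7e-05, 3.8e-05 and 0.0012). Pkm, which was higher in old mice and lower in SOD1G93A mice, had a difference of -0.45 ± 0.071 (edgeR adjusted p = 6.3e-05). Of the 16 pyruvate dehydrogenase complex, TCA cycle and Pcx genes, 11 were called more negative in SOD1G93A mice, and all 16 differences had a negative sign. The other 5 (Dld, Idh3g, Ogdh, Dlst and Suclg1) were not called. Leaving out SOD1G93A library 3 reduced the 18 to 11 and the 11 to 6, and the share over all genes to 10.1%.

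Other enzymes and transporters of the same pathways were read from the same fits, in lists chosen by function. Of all genes tested, 13.5% were higher and 12.9% lower in aging, and 18.4% were higher and 15.5% lower in ALS. These shares stand beside the counts of every list below. Among 17 further glycolytic isozymes and regulators, 8 were tested in aging, with 2 higher and 1 lower, and 10 in ALS, with 3 higher and none lower. Hk3, a hexokinase known from myeloid cells, was higher in old mice, at 1.15 ± 0.32 against 3.69 ± 1.09 CPM (mean ± SD, young and old, n = 8 and 8; log2 1.68 ± 0.22 SE, edgeR adjusted p = 5.4e-06). In the ALS libraries Hk3 stood at 0.95, 1.43 and 0.54 CPM in controls and at 14.3, 8.76 and 11.6 CPM in SOD1G93A mice (log2 3.57 ± 0.34, edgeR adjusted p = 0.00024). Its values in control mice rest on few reads. Pfkfb4 and Ldhd, a phosphofructokinase-2 isozyme and D-lactate dehydrogenase, were higher in SOD1G93A mice (log2 0.71 ± 0.16 and 0.57 ± 0.18). In old mice Bpgm, the bisphosphoglycerate mutase, was higher and Pfkfb2 lower (log2 0.14 ± 0.049 and -0.32 ± 0.077). The call of Bpgm held in 5 of 16 fits that left out a library and under 4 of 9 other settings.

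Regulators of the pyruvate dehydrogenase complex were read in the same way. Of all genes, 26.4% were called in aging and 33.9% in ALS, in either direction. In aging 1 of 8 tested was higher, the kinase Pdk2 (log2 0.16 ± 0.054). The call of Pdk2 held in 11 of 16 fits that left out a library and under 5 of 9 other settings. It was lost under the correction for GC content and length. In ALS 1 of 8 was higher and 1 lower. The kinase Pdk4, which switches the complex off, stood at 16.1, 23.7 and 20.2 CPM in control libraries and at 82.9, 21.9 and 38.3 CPM in SOD1G93A libraries (log2 1.25 ± 0.41, edgeR adjusted p = 0.042). SOD1G93A library 2 lay within the control range, and the call held in 1 of 6 fits that left out a library. The phosphatase Pdp1, which switches the complex on, was lower (log2 -0.37 ± 0.12), and its call also held in 1 of these 6 fits.

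Among 14 other enzymes at or beside the TCA cycle, 13 were tested. In aging 2 were higher and none lower, and in ALS 3 were higher and 2 lower. Idh2, the NADP-dependent mitochondrial isocitrate dehydrogenase, was higher in old mice (log2 0.38 ± 0.058) and in SOD1G93A mice (log2 1.05 ± 0.16, edgeR adjusted p = 0.0024), in which the NAD-dependent Idh3a and Idh3b were lower. Suclg2 was higher in old mice too (log2 0.27 ± 0.063). Acly, the citrate-cleaving enzyme that supplies acetyl-CoA for lipid synthesis, stood at 420, 440 and 426 CPM in control libraries and at 223, 271 and 223 CPM in SOD1G93A libraries (log2 -0.84 ± 0.10, edgeR adjusted p = 0.00071). Malic enzyme Me1 was higher in SOD1G93A mice (log2 0.41 ± 0.092).

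All 16 transporters and shuttle proteins were tested. In aging 6 were higher and 1 lower, and in ALS 2 were higher and 5 lower. Of the lactate and pyruvate transporters in this list, Slc16a1 (MCT1) and Slc16a3 (MCT4) were higher in old mice (log2 0.23 ± 0.056 and 0.83 ± 0.18). Mpc1, a subunit of the mitochondrial pyruvate carrier, was also higher (log2 0.18 ± 0.044), but lost its call under the correction for GC content and length. Gpd2, the mitochondrial enzyme of the glycerol phosphate shuttle, was the 1 that was lower (log2 -0.22 ± 0.042). In SOD1G93A mice Slc16a1 stood at 150, 134 and 172 CPM against 94.3, 74.1 and 67.2 CPM in controls (log2 0.95 ± 0.14, edgeR adjusted p = 0.0020). Slc16a3 stood at 12.5, 6.34 and 8.42 CPM against 2.09, 1.94 and 1.38 CPM (log2 2.34 ± 0.31, edgeR adjusted p = 0.0011). The lower transcripts in SOD1G93A mice were the malate-aspartate shuttle genes Slc25a12, Got1 and Got2 (log2 -0.68 ± 0.14, -0.59 ± 0.13 and -0.39 ± 0.099), the mitochondrial pyruvate carrier subunit Mpc2 (log2 -0.39 ± 0.096) and the neuronal glucose transporter Slc2a3 (log2 -0.32 ± 0.089). Got2, Mpc2 and Slc2a3 were named after their values were seen, and with single libraries left out their calls held in 2, 4 and 1 of 6 fits. Mdh1 belongs to the same shuttle as Slc25a12, Got1 and Got2.

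Of 16 pentose phosphate and glycogen enzymes, all tested, 4 were higher and 2 lower in aging, and 6 were higher and 3 lower in ALS. G6pdx, Pgls and Pgd, which catalyze the oxidative steps of the pentose phosphate pathway, were higher in old mice (log2 0.32 ± 0.050, 0.44 ± 0.099 and 0.32 ± 0.063) and in SOD1G93A mice (log2 0.43 ± 0.082, 0.90 ± 0.17 and 0.56 ± 0.12). Pygl, the liver-type glycogen phosphorylase, was higher in old mice (log2 0.67 ± 0.12), in which Rpe of the pentose phosphate pathway and Pgm2l1, a glucose-1,6-bisphosphate synthase, were lower (log2 -0.35 ± 0.092 and -0.26 ± 0.065). The call of Pgm2l1 in old mice was lost under the correction for GC content and length. Pygm, the phosphorylase of muscle and astrocytes, Pgm2l1 and the transketolase Tkt were lower in SOD1G93A mice (log2 -0.63 ± 0.094, -0.89 ± 0.17 and -0.28 ± 0.084). The call of Tkt held in 1 of 6 fits that left out a library. Rpe, Tkt, the SOD1G93A value of Pgd and the value of Pgm2l1 in old mice were named after their values were seen.

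Markers of the cell types of the cord moved in both comparisons. Of 14 microglial and macrophage markers, 13 were higher in old mice and 12 in SOD1G93A mice, and none was lower. Their summed level was 491 to 546 CPM in young, 902 to 1588 CPM in old, 508 to 606 CPM in control and 2314 to 4668 CPM in SOD1G93A mice. Of 15 neuronal markers, 9 were lower and 1 higher in old mice and 12 were lower in SOD1G93A mice, with sums of 11129 to 12799, 9263 to 12403, 14046 to 14882 and 6463 to 9994 CPM in the same order of groups. Motor neuron markers were lower in SOD1G93A mice for 5 of 7, with sums of 284 to 318 CPM in control and 140 to 154 CPM in SOD1G93A mice. Astrocyte markers were higher for 4 of 9 in old mice, with 1 lower, and for 6 of 9 in SOD1G93A mice, with sums of 6034 to 6581, 6821 to 7633, 5639 to 6152 and 11211 to 17905 CPM. The median log2 fold change of the 9 astrocyte markers was 0.0052 in old and 0.62 in SOD1G93A mice. Oligodendrocyte marker sums overlapped, at 24816 to 31003 CPM in young, 24668 to 29296 CPM in old, 27276 to 31205 CPM in control and 26318 to 29015 CPM in SOD1G93A mice. Of 9 oligodendrocyte markers, 1 was higher and 4 lower in old mice and 1 was higher in SOD1G93A mice, and of 7 motor neuron markers 1 was lower in old mice. Precursors of oligodendrocytes had 3 of 5 markers lower in old and 3 of 5 higher in SOD1G93A mice, and endothelial cells 2 of 7 lower in old mice and none called in SOD1G93A mice. Ependymal markers were higher for 1 of 4 and 3 of 4 tested, Schwann cell markers for 1 of 3 and 2 of 4, and fibroblast markers for 0 of 4 and 1 of 5, in old and SOD1G93A mice in that order, and none was lower. None of 5 red blood cell markers was called in either. Whether these sums are related to the levels of the member genes was not tested. Skeletal muscle markers, whose tissue is rich in glycolytic enzymes, summed to at most 6.73 CPM in any library, and those of T cells and neutrophils to at most 2.93 CPM, with Ly6g at 0 throughout.

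**Figure D5:**
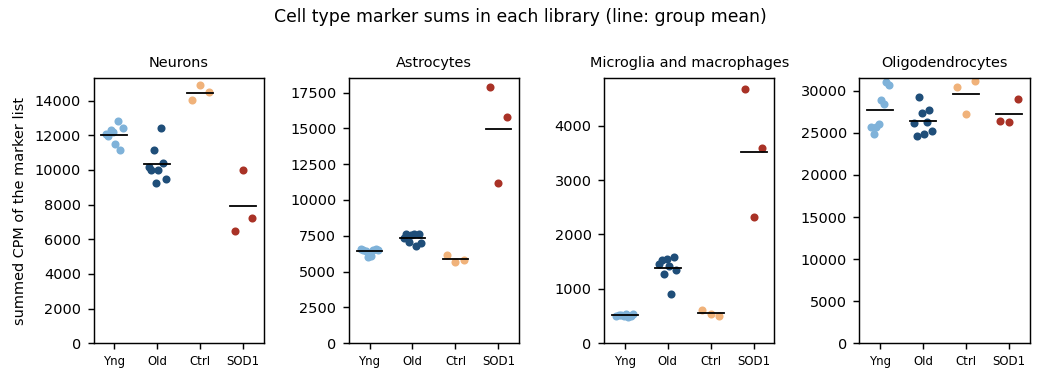
Summed CPM of the marker genes of 4 cell types (y axis, from 0) in every library, by group (x axis, Yng for young, Ctrl for control and SOD1 for SOD1G93A), with a line at each group mean. The SOD1G93A libraries lie under the controls for neurons and above them for astrocytes and microglia, with library 2 (the middle point) the nearest to the controls.

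Some members share sequence with other genes. Eno1b is a near-identical, intronless copy of Eno1 to which the deposited counts gave 0 to 786 reads in the aging libraries, up to 20.6% of the sum of both genes. When both were summed, a setting chosen after the data were seen, the log2 fold change in old mice was 0.13 ± 0.047 and passed the test (edgeR adjusted p = 0.040), whereas Eno1 alone had 0.096 ± 0.057 and did not (edgeR adjusted p = 0.23). In ALS the sum was not called. The related genes Aldoart1, Aldoart2, Gapdhs, Pgk2, Pgam2 and Ldhal6b had at most 17 counts in any library. Pfkm, Pfkp, Aldoa, Tpi1, Gapdh, Pdha1, Idh3b, Sucla2, Fh1, Mdh1 and Pcx overlap a protein-coding gene on the opposite strand in GENCODE M21, and whether the counting used the strand is not given in the sources used here.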

How the data were processed

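Whole spinal cord RNA of 22 mice was sequenced. The authors aligned reads with STAR and quantified genes with RSEM on the Ensembl 88 annotation of mm10. The authors deposited RSEM expected counts, not normalized between libraries, and a second table of log2 values, log2(FPKM + 1). The columns name each library's group but not its replicate number. Expected counts were rounded to whole numbers. Each comparison was fitted on the whole table with edgeR 4.0.16 (R 4.3.3), with a minimum count of 10 and minimum total of 15 in filterByExpr, TMM scaling and the quasi-likelihood test. P-values were adjusted by the Benjamini-Hochberg method across every gene in the fit, and calls were made at 0.05. Ratios were compared by exact permutation tests.

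All 33 members were named. Of the related lists, called genes were named, at most the 4 with the smallest adjusted p per list and comparison apart from those the text gives as named after their values were seen, and of marker lists only counts and sums. The members and lists were chosen with earlier results of these data known. Libraries of a group differed beyond sampling noise (chi-square per degree of freedom at least 2.57 for any pair). Simulated data were used to test the fit. Of 200 altered genes with a log2 change of 0.5, 98.5% were recovered among 13647 genes of the aging design and 26% among 14386 genes of the ALS design, where 10.3% of calls were false. With changes of 1.5, 100% were recovered in both. Only 200 genes were altered in each simulation, whereas 26.4% of genes were called in the aging data and 33.9% in the ALS data. The recovered shares therefore need not hold in the real data. Altered genes were also drawn only from abundant genes, at mean levels above those of Hk2, Hk3 and Slc16a3. The shares therefore do not cover genes as scarce as these. At the library depths, 3 counts correspond to 0.231 to 0.582 CPM. Alternatives were other scalings (RLE, upper-quartile, total counts), DESeq2 1.42.0, other filters, limma 3.58.1 on the log2 values, one fit of all libraries and leaving out each library. For the difference between the comparisons, only control and SOD1G93A libraries were left out. A loess correction for GC content and length (span 0.3) and the sum of Eno1 and Eno1b were added after the data were seen. Gene overlaps are from GENCODE M21 on GRCm38, and promoters from RefSeq on GRCm38.p6. The values of 1 related gene are not reported here.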

Additional observations from a re-analysis of the deposited data

Results flagged for a closer look

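Within the young and old groups of 8, 3 of 66 groups of values had 1 library far from the rest by Dixon's criterion, which chance meets in about 1 in 20 groups. Gapdh was at 265 CPM in young library 4, where the next lowest young library had 352 CPM. Eno1 was at 466.3 CPM in old library 6, where the next lowest old library had 566 CPM, and reads given to its copy Eno1b were up to 121 CPM among the old libraries. Idh3g was at 147 CPM in old library 6, where the next highest old library had 118 CPM.

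The SOD1G93A effect differed from the effect of age by the edgeR interaction test for 20 members, beside 25.8% of all genes tested. On the log2 scale the difference was positive for Hk2 (1.01) and Ldha (0.69). For the glycolysis genes it was -0.21 for Hk1, -0.32 for Aldoa, -0.29 for Tpi1, -0.24 for Pgam1, -0.79 for Eno2 and -0.45 for Pkm, and it was -0.40 for Ldhb. For the pyruvate dehydrogenase complex it was -0.24 for Pdha1, -0.40 for Pdhb and -0.59 for Dlat. For the TCA cycle it was -0.36 for Cs, -0.33 for Idh3a, -0.40 for Idh3b, -0.46 for Sucla2, -0.41 for Fh1, -0.55 for Mdh1 and -0.32 for Mdh2, and it was -0.33 for Pcx. Kit, sex and age coincide with the experiments and cannot be told apart from these differences.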

How the results depend on the processing

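No paired analysis was possible because the table columns carry no replicate number. In old mice, the 9 members called higher were 2 under the correction for GC content and length, and the 1 called lower was 0 under that correction, under upper-quartile factors and in one fit of all libraries, and 2 with DESeq2. The cause was not tested. Leaving out single libraries gave 7 to 12 higher and 0 to 2 lower. In SOD1G93A mice, the 13 members called lower were 6 with total counts only and 4 with limma on log2(FPKM + 1), and the cause was not tested. Leaving out single libraries gave 2 to 4 higher and 2 to 14 lower, with fits of 3 against 2 libraries. For the difference between the comparisons only control and SOD1G93A libraries were left out, which gave 2 to 3 called positive and 11 to 20 called negative. Its dependence on single young or old libraries was not tested. The Aldoa to Aldoc ratio in aging was 0.095 on the log2(FPKM + 1) scale and no longer passed. The Pfkp to Pfkm ratio in aging, with library left out, lay between -0.13 and -0.088 with adjusted p from 0.014 to 0.125, and so passed in some of these tests. No member called with the settings of the report changed direction. Over all members the sign differed in 26 of 826 values in aging, 6 of 496 in ALS and 8 of 297 for the difference, each time for a member not called there. Among these members, Ldhb, Eno1 and Eno2 were called higher in old mice under some alternatives but had log2 fold changes of -0.055, -0.032 and -0.0026 under the correction for GC content and length. The median log2 fold change of all genes moved by less than 0.1 under every scaling. In the simulated data the ALS design recovered 26% of the log2 changes of 0.5. Far fewer genes changed there than were called in the real data, so the simulation does not measure the power of the real fit. Members not called in ALS may still differ.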
